A study of Mus musculus with 4 samples.

Results

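A set of 10 genes that write, copy, erase or protect DNA methylation were described in an ATAC-seq comparison of mouse embryonic stem cells with and without Hox function. The genes are Dnmt1 and Uhrf1, Dnmt3a, Dnmt3b and Dnmt3l, Tet1, Tet2 and Tet3, and Zfp57 and Trim28, which are 10 of the 49943 genes of the RefSeq table of assembly GRCm38.p6. They were chosen by name, for their role, with earlier results of these data known. Every called peak that overlapped the body of 1 of these genes or the 10 kb on either side was assigned to it. Peaks of the 4 libraries that overlapped by at least 1 bp were joined into 1 region, which gave 171 regions at the 10 genes of 208141 in the genome.

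ATAC-seq uses a transposase to insert sequencing adapters into accessible DNA, so a peak marks open chromatin. The cells were measured in bulk, where fewer open cells and less opening per cell cannot be told apart. The assay measures neither the expression of the gene beside it nor the methylation of the DNA. The wt group held 2 libraries of mouse embryonic stem cells, and the Hox-/- group held 2 libraries of such cells that, per the title of the study, have no Hox function left. Both groups grew in DMEM with serum, leukaemia inhibitory factor, CHIR99021 (an inhibitor of the kinase GSK-3) and PD0325901 (an inhibitor of MEK1/2). Whether the Hox-/- cells are 1 clone is not given in the sources used here. Nothing in the labels says that the replicates came from separate cultures, so their spread may be technical, and with 2 libraries against 2 an exact permutation test cannot give a p under 0.33.

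DNA methylation in mammals sits mostly on the cytosine of CG dinucleotides (CpG). Dnmt3a and Dnmt3b place it on unmethylated DNA with the help of the catalytically inactive Dnmt3l, Dnmt1 copies it to the new strand after replication once Uhrf1 has bound the hemimethylated site, and the Tet enzymes oxidise it as a step of its removal. At imprinted loci 1 parental allele keeps its methylation through the early embryo, where Zfp57 binds the methylated allele and recruits Trim28 (also called KAP1), a scaffold for repressors. Embryonic stem cells grown with inhibitors of MEK and GSK-3 are known for low DNA methylation, and the loss of imprints in culture is a known hazard of such cells.

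Called peaks on chromosomes 1 to 19, X and Y numbered 213633 (replicate 1) and 216724 (replicate 2) for wt, against 191641 (replicate 1) and 200142 (replicate 2) for Hox-/-. The lists give no read counts, so the sequencing depth is unknown. The genotype label was checked at the 4 Hox clusters, which held 183 and 188 peaks in wt and 6 and 4 in Hox-/-. Of 8 stem cell markers (Pou5f1, Sox2, Nanog and others), 8 had a peak at a start or end in every library, and so did 7 of 8 genes of differentiated cells (all but Gata4), so an open start does not separate the 2 kinds of cell here.

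The sequences at 5 starts that the results turn on, and 1 start without a peak, show how different these promoters are. Each is the strand of the gene from 250 bases before to 50 bases after a start listed by RefSeq (GRCm38.p6), written 5′ to 3′, with every CG in capitals. The first 3 are the starts with the largest difference between the genotypes, Tet2 is the start with the most CpG and almost no difference, and the 2 starts of Dnmt1 are 1 with and 1 without a peak.
Uhrf1, downstream start (chr17:56304063-56304362, plus strand): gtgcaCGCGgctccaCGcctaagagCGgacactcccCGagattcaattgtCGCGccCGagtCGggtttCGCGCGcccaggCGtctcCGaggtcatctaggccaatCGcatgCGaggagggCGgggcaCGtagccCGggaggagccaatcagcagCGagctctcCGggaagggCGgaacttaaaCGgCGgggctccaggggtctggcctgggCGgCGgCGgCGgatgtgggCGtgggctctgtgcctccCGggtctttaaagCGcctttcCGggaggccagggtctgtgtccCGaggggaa
Trim28 start (chr7:13023902-13024201, plus strand): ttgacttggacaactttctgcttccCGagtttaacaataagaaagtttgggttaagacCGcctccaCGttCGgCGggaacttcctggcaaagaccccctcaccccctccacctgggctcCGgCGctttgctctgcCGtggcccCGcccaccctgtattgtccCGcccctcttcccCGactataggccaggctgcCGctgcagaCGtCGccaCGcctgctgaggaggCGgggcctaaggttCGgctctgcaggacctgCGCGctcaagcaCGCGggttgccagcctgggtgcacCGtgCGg
Dnmt3l, middle start (chr10:78049592-78049891, plus strand): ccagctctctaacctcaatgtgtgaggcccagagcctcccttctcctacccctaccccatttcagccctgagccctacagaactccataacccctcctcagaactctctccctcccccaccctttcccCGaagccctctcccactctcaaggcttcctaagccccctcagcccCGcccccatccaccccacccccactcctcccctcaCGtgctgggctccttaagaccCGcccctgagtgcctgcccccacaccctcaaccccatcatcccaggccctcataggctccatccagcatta
Tet2 start (chr3:133544341-133544640, minus strand): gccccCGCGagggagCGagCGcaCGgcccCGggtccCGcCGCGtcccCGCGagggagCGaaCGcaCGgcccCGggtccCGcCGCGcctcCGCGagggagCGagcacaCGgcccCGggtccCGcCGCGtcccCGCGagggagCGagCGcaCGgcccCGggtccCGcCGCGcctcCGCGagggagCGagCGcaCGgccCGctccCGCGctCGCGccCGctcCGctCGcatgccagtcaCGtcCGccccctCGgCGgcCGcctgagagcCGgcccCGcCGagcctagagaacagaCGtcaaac
Dnmt1, inner start (chr9:20952574-20952873, minus strand): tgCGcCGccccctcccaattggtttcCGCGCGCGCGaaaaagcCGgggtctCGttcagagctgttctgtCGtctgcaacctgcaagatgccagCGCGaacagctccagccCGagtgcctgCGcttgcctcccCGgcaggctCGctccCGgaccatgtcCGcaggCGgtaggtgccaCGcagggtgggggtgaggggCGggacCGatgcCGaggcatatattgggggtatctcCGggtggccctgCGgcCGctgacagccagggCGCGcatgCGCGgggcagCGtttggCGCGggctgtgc
Dnmt1, outer start (chr9:20959839-20960138, minus strand): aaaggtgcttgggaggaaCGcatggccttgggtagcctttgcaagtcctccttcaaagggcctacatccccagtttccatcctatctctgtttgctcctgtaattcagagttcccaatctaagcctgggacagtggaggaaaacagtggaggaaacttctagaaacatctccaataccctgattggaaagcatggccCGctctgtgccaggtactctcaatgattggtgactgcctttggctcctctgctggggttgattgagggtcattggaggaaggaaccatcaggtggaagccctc
Starts with a summit within 1 kb in every library were CpG-rich in some of these genes and CpG-poor in others. Over all 32851 promoters of the RefSeq table the median was 7 CpG in 300 bases (quartiles 3 and 20). The Tet2 start held 57 CpG, more than 99.8% of promoters, the Dnmt3a starts at 3806980 and 3807160 held 46 and 47, the printed inner Dnmt1 start and the downstream Uhrf1 start held 33 each, and the Dnmt3b start held 30. By contrast, the Dnmt3l starts at 78049842 and 78055335 held 4 and 3 CpG and the Zfp57 start at 37003666 held 4, below the median, and the Zfp57 start at 37002525 held 9, and these 4 starts had a summit within 1 kb in every library too. The letters TTTCGCG, part of the motif of E2F factors, occurred on either strand at 2 of the 19 listed starts, the printed inner Dnmt1 start and the downstream Uhrf1 start, against 0.849% of all promoters. The hexamer TGCCGC that Zfp57 reads occurred at 4 starts, of Dnmt3a (2 overlapping windows), Tet3 and Trim28, against 11.6% of all promoters. The homeodomain core TAATTA occurred at 0 of the 19 starts, against 5.29% of all promoters. A match of letters is a description and not a binding site.

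In all 4 libraries, each of the 10 genes had a peak summit within 1 kb of at least 1 listed start. Of the 19 listed starts, 15 (78.9%) had such a summit in all 4 libraries, against 54.9% of 32812 starts in the genome. Of the other 4 starts, the third Dnmt3a start at 3891744 had summits in wt replicate 1 only, the first Dnmt3l start at 78042287 had 1 summit, 965 bp away, in Hox-/- replicate 2 only, and the outer Dnmt1 start and the first Zfp57 start at 37001163 had none. With a limit of 250 bp in place of 1 kb, 9 of the 10 genes had a summit near a start in every library, all but Dnmt3a.

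The number of peaks at the 10 genes overlapped between the genotypes. Replicates 1 and 2 of wt had 191 and 181 peaks there, and those of Hox-/- had 171 and 185. The lower wt value lies between the Hox-/- values. Summits within 1 kb of an end of the gene numbered 35 and 33 in wt and 32 and 34 in Hox-/-, those inside the gene 105 and 103 against 92 and 106, and those in the flanks 51 and 45 against 47 and 45. The means were 186 ± 7.07 in wt and 178 ± 9.90 in Hox-/- (SD, n = 2), a Hox-/- minus wt difference of -8 (p = 0.67 in a two-sided exact permutation test). With peaks of −log10 q of at least 5 only, the difference was -19 and the genotypes did not overlap (two-sided exact permutation test, p = 0.33), and with overlapping lines merged it was -9 (two-sided exact permutation test, p = 0.33). All peaks of the libraries numbered 215178 ± 2186 in wt and 195892 ± 6011 in Hox-/- (SD, n = 2; exact permutation test, two-sided, p = 0.33), which touches every count of peaks. Per 10000 peaks of the library, the number at the 10 genes was 8.94 and 8.35 in wt and 8.92 and 9.24 in Hox-/- (two-sided exact permutation test, p = 0.67, n = 2).

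Most of the accessible regions at these genes were shared. Of the 171 regions, 104 (60.8%) were called in all 4 libraries, against 59% of all regions. Regions called in both wt libraries and neither Hox-/- library numbered 5 (2.92%, against 3.84% of all regions), 2 each in Dnmt1 and Tet2 and 1 at Zfp57. The opposite pattern was found at 4 regions (2.34%, against 1.23%), 1 each in Dnmt3a, Dnmt3b, Tet2 and Tet3. A further 35 regions were called in 1 library only (20.5%, near the 18.8% of all regions).

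To compare strength between libraries of different yield, the 122749 regions called in all 4 libraries were ranked in each library by their best −log10 p, rank 1 being the strongest. The shift is the mean log2 rank in wt minus that in Hox-/-, so a value of 1 means that the rank number in Hox-/- is 1 doubling better. A region is called better ranked in Hox-/- when both Hox-/- ranks are better than both wt ranks, and worse ranked in the opposite case. Among the 104 shared regions of the 10 genes, 32 (30.8%) were better ranked in Hox-/-, against 20.6% of all shared regions, and 13 (12.5%) were worse ranked, against 20.3%. The median shift was 0.09, against 0.01 over all shared regions. A shift of at least 0.5 in size was found at 9 of the better ranked regions (8.65% of 104, against 3.91%) and 4 of the worse ranked ones (3.85%, against 4.3%). No test was made of these shares, since neighbouring regions of a gene are not independent.

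The excess of better ranked regions was modest beside the replicate error. The median absolute shift of the 104 regions was 0.18, and the median absolute difference between replicates was 0.15 in wt and 0.25 in Hox-/-. The shift was larger than both replicate differences at 31 of 104 regions (29.8%), against 27.96% of all shared regions. Relative to the mean of the 4 libraries, the median log2 rank of the 104 regions stood at 0.04 and 0.05 for the wt libraries and at -0.08 (replicate 1) and -0.04 (replicate 2) for the Hox-/- libraries, so both Hox-/- libraries lay on the better side. Without Hox-/- replicate 1, 48 of 111 shared regions (43.2%) were better ranked and 39 (35.1%) worse, when 35.9% and 35.6% of all shared regions were. The shortage of worse ranked regions was thus not seen without that library.

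**Figure D1:**
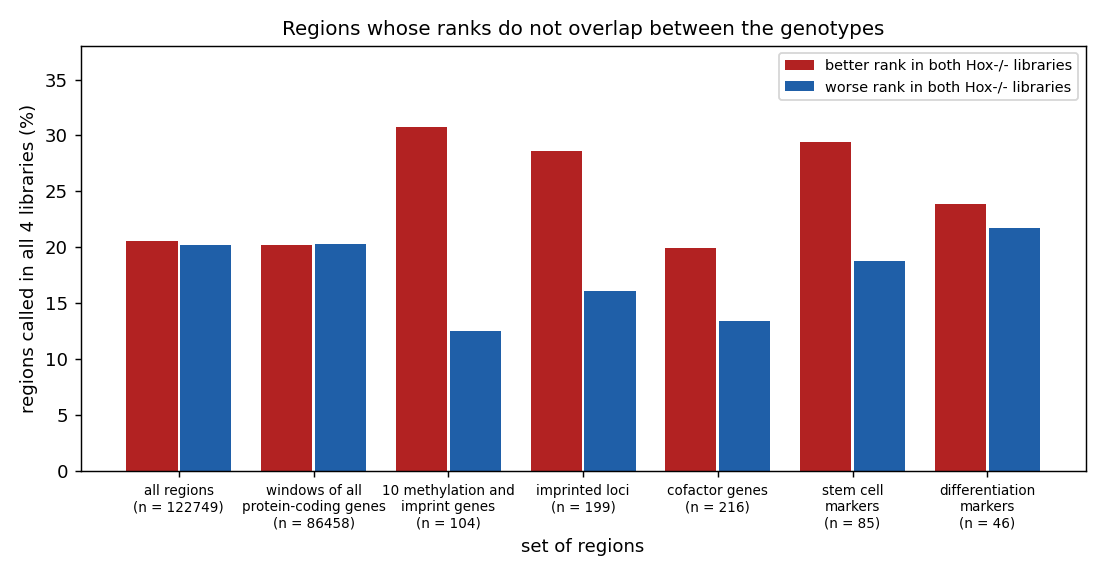
Share of shared regions better ranked (red) or worse ranked (blue) in both Hox-/- libraries, in percent, for all regions, the windows of all protein-coding genes, the 10 genes and 4 comparison lists; n is the number of shared regions. The 10 genes stand at 30.8% against 12.5%, where all regions stand at 20.6% against 20.3%, and the stem cell markers at 29.4% against 18.8%.

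The regions were also counted by their place in the window. Of 15 shared regions at starts of the 10 genes, 5 were better ranked and 0 worse ranked in Hox-/-, against 19.9% and 18.1% of 15545 start regions in the genome. Their median shift was 0.13, against 0.02 for all start regions. Inside the genes, 18 of 54 shared regions were better and 7 worse ranked, with a median shift of 0.08 (33.3% and 12.96%, beside 20.6% and 20.3% of all shared regions). At ends of neighbouring genes 4 of 11 were better and 2 worse ranked, with a median of 0.18 (36.4% and 18.2%), and in the rest of the flanks the numbers were 5 and 4 of 22, with a median of -0.01 (22.7% and 18.2%, near the shares of all shared regions). The difference between these classes was not tested.

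Taking 1 region per gene, the best-ranked one at a start, 4 of the 10 genes were better ranked in Hox-/- (Uhrf1, Trim28, Dnmt3a and Zfp57) and 0 were worse ranked. Over 15351 genes with such a region, 19.4% were better and 18.5% worse ranked. The median shift was 0.14, against 0.01 over those genes, and 8 of the 10 values were above 0, beside 51.4% of all genes. Uhrf1 and Trim28 passed 0.5 in size, as did 4.91% of all genes upward and 4.36% downward. The 4 genes were also better ranked with a −log10 q of at least 5, by fold, among all lines and with an overlap of 50%.

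**Figure D2:**
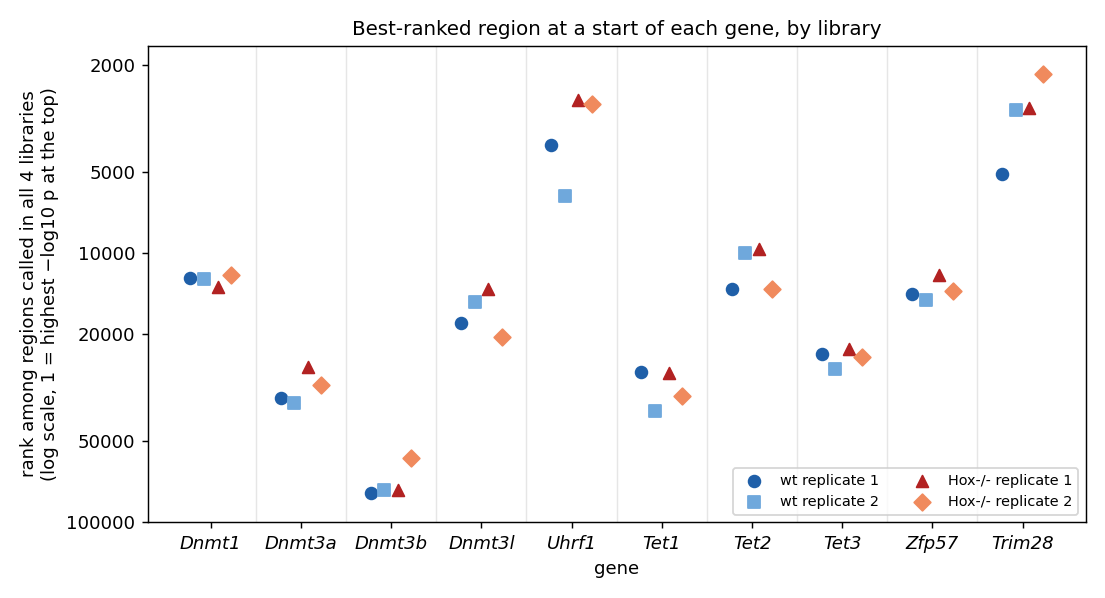
Rank of the best-ranked start region of each gene in each library, on a log axis with rank 1 toward the top; blue marks the wt libraries and red or orange the Hox-/- libraries. The Hox-/- points of Uhrf1, Trim28, Dnmt3a and Zfp57 lie above both wt points, while those of the other 6 genes overlap; Trim28 separates by ranks 2929 and 2880.

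Uhrf1, which brings Dnmt1 to hemimethylated CpG after replication, had the largest shift of the 10 genes at a start. The region at its downstream start, chr17:56303887-56304525, ranked 3976 and 6153 in wt and 2703 and 2788 in Hox-/-. Both Hox-/- libraries placed it well ahead of both wt libraries, a shift of 0.85, larger than the replicate differences of 0.63 in wt and 0.04 in Hox-/-. The fold over background, within each list, was 9.89 and 9.06 in wt and 11.1 and 11.3 in Hox-/-. Without wt replicate 2 the shift was 0.53. The region lies over the promoter with 33 CpG printed above, its summits 71 to 93 bp before the start. The region at the upstream start, chr17:56303083-56303662, ranked 13844 and 10367 in wt and 16013 and 10978 in Hox-/-, a shift of -0.15 with overlapping ranks, so the 2 starts of the gene, 976 bp apart, did not move together.

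The strongest region in the Uhrf1 window belongs to an end of its neighbour Kdm4b, a histone demethylase gene. The region chr17:56325449-56326195 ranked 216 and 159 in wt and 131 and 91 in Hox-/-, a shift of 0.76. It is among the strongest regions in every library, and its replicate differences of 0.44 and 0.53 are not far below the shift. The other 3 shared regions of the window had shifts from -0.08 to 0.02.

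Dnmt1, the maintenance methyltransferase, showed a start that hardly differed between the genotypes. The region at its inner starts, chr9:20952023-20953553, ranked 12377 and 12452 in wt and 13356 and 12033 in Hox-/-. The Hox-/- ranks enclose the wt ranks, and the shift was -0.03. The outer start of the gene lies 7265 bp upstream, has 2 CpG in its 300 bases, and had no summit within 1 kb in any library. A weak region 900 to 1508 bp downstream of it, chr9:20958380-20958988, was called in both wt libraries and neither Hox-/- library. Its best peak ranked 144566 among the 213633 peaks of wt replicate 1 and 137629 among the 216724 of wt replicate 2.

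Dnmt1 held 20 and 20 peaks in wt and 14 and 16 in Hox-/-, and with Zfp57 (13 and 14 against 12 and 9) it is 1 of 2 genes with fewer peaks in both Hox-/- libraries than in both wt libraries. Over 19168 protein-coding genes with a peak in such a window the share was 21.8%, so 2 of 10 genes is near the background; 0 of the 10 genes had more peaks in both Hox-/- libraries, against 3.64%. Of its 6 shared regions, 3 were worse ranked in Hox-/- and 1 better, beside 20.3% and 20.6% of all shared regions. The region chr9:20916190-20916528, inside the gene and 43.5 kb from its upstream end, ranked 51209 and 32970 in wt and 64601 and 55862 in Hox-/-, a shift of -0.55. The wt replicates differed by 0.64 there, more than the shift. The better ranked one, chr9:20901513-20902537 beyond the far end, ranked 61835 and 71897 in wt and 49374 and 49267 in Hox-/-, a shift of 0.43. Dnmt1 also had the lowest share of shared regions among the 10 genes: of its 19 regions, 6 were called in 1 library and 5 in 2 or 3 libraries without separating the genotypes. Over all regions the shares of these patterns were 18.8% and 17.1%.

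Dnmt3a, a de novo methyltransferase, had the most better ranked regions of the 10 genes, 8 of 18 shared regions (44.4%, beside 20.6% of all shared regions), with 1 worse ranked (5.56%, beside 20.3%) and a median shift of 0.18. It held 31 and 24 peaks in wt and 29 and 29 in Hox-/-. The start region, chr12:3805884-3806982, ranked 34659 and 36059 in wt and 26569 and 30993 in Hox-/-. Both Hox-/- ranks were better, by a shift of 0.30, against replicate differences of 0.06 in wt and 0.22 in Hox-/-. The shift was 0.19 without Hox-/- replicate 1 and 0.18 when regions were ranked by fold. The 7 other better ranked regions were spread over the upstream flank and the gene body.

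The largest shift at Dnmt3a lay in its upstream flank. The region chr12:3791759-3792227, 9.57 kb before the gene and more than 1 kb from any gene end of the table, ranked 6079 and 6649 in wt and 2480 and 4453 in Hox-/-, a shift of 0.94. Both Hox-/- ranks stood clear of the wt ranks, though the Hox-/- replicates differed by 0.84 between themselves. Inside the gene, chr12:3817067-3817465 ranked 54126 and 73737 in wt and 36131 and 45156 in Hox-/-, a shift of 0.65. The exception was chr12:3889658-3890504, in front of the third listed start, which ranked 10435 and 9675 in wt and 17459 and 10518 in Hox-/-. Its shift was -0.43, and Hox-/- replicate 2 lay next to the wt values while Hox-/- replicate 1 carried the difference.

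Dnmt3b, the other de novo methyltransferase, had the weakest start of the 10 genes. The region chr2:153649027-153650560 ranked 77655 and 75693 in wt and 76056 and 57632 in Hox-/-. The ranks of 3 libraries lay close together and Hox-/- replicate 2 stood apart, a shift of 0.21 with overlap. The largest difference was in the upstream flank, where chr2:153639366-153639971 ranked 18863 and 22442 in wt and 39765 and 32015 in Hox-/-, a shift of -0.79, the most negative of the 104 regions. A second flank region 3.5 kb nearer to the gene, chr2:153642832-153643464, went the other way, with ranks 26262 and 25847 in wt, 24935 and 18211 in Hox-/- and a shift of 0.29. Of 9 shared regions, 2 were better (22.2%, near the 20.6% of all shared regions) and 1 worse ranked (11.1%, beside 20.3%), and the gene held 15 and 12 peaks in wt and 14 and 13 in Hox-/-.

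Dnmt3l, the inactive partner that stimulates Dnmt3a and Dnmt3b, has 3 listed starts that differed from each other. The region at the middle start, chr10:78049090-78050130, ranked 58825 and 61629 in wt and 39740 and 42221 in Hox-/-. The replicates of each genotype lay close together (differences of 0.07 and 0.09) and the genotypes apart, a shift of 0.56. At the downstream start, chr10:78054771-78055657, the ranks were 23011 and 30663 in wt and 26118 and 22473 in Hox-/-, which overlap. The best-ranked region counted as a start, chr10:78043150-78043907, with a shift of -0.01, lies at an end of the neighbour Aire and qualifies only through the summit of 1 library 965 bp from the first start. At the far side of the window, the region at ends of Icosl and Gm51775, chr10:78069098-78070087, ranked 32765 and 20915 in wt and 17233 and 17748 in Hox-/-. Its shift of 0.58 was below the wt replicate difference of 0.65.

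**Figure D3:**
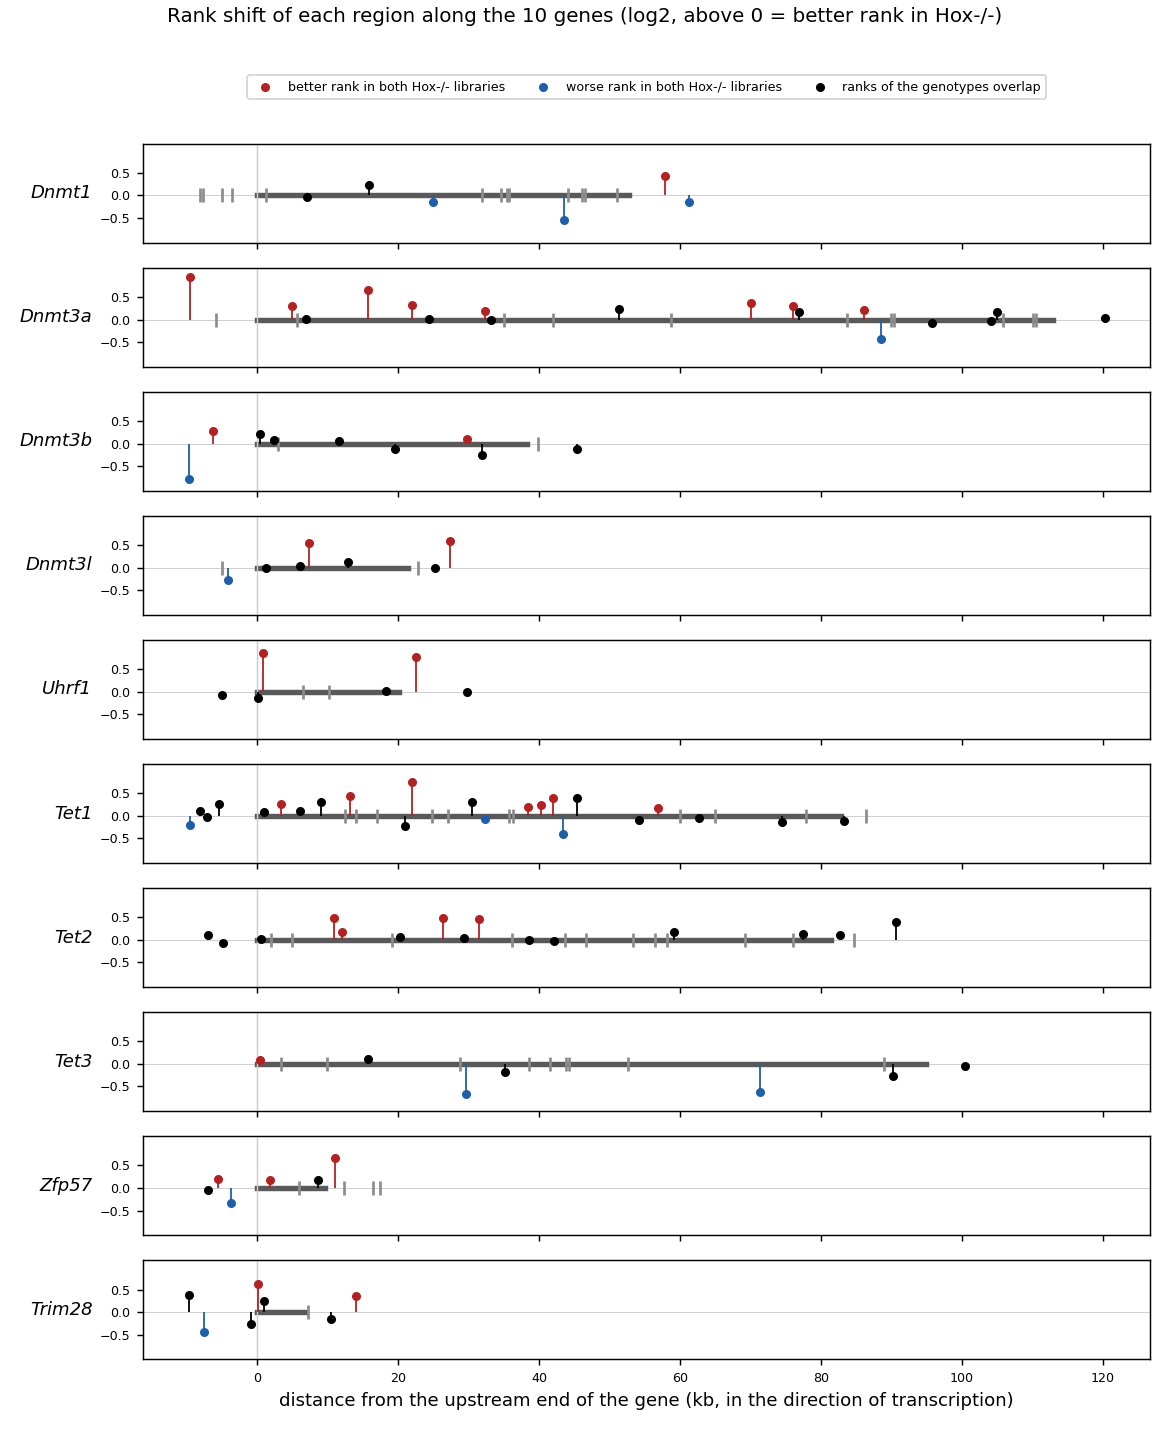
Shift of every shared region along each of the 10 genes (points; log2, above 0 = better rank in Hox-/-) against distance from the upstream end of the gene in kb; the grey bar is the gene body and grey ticks are regions not called in all 4 libraries. Red points are better ranked and blue points worse ranked in both Hox-/- libraries, black points overlap; Dnmt3a has 8 red points and 1 blue of 18, Tet2 4 red and 0 blue of 15, and Tet3 1 red and 2 blue of 7, where 20.6% of all shared regions are better and 20.3% worse ranked.

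Tet1, the most abundant Tet enzyme of embryonic stem cells, had the largest number of regions, 34, of which 23 were shared, and held 33 and 38 peaks in wt and 30 and 37 in Hox-/-. At its start, chr10:62885475-62887645, the ranks were 27721 and 38628 in wt and 28010 and 33885 in Hox-/-. The ranks interleave, with a shift of 0.09. It was 0.33 without wt replicate 1 and -0.15 without wt replicate 2. Over its whole window 7 of the 23 shared regions were better ranked (30.4%, beside 20.6% of all) and 3 worse (beside 20.3%), with a median shift of 0.11. The largest shift, 0.75, was at chr10:62865159-62865892, which lies inside Tet1 and within 1 kb of an end of the gene model Gm51805, and ranked 13403 and 17175 in wt and 8971 and 9135 in Hox-/-. The largest in the other direction, -0.41, was at chr10:62843709-62844353, which ranked 40703 and 41845 in wt and 65894 and 45834 in Hox-/-.

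Tet2, the Tet enzyme that lacks a CXXC domain of its own, had 15 shared regions, of which 4 were better ranked in Hox-/- (26.7%, not far from the 20.6% of all shared regions) and 0 worse (beside 20.3%). Its start, chr3:133543983-133545195, the most CpG-rich of the set, ranked 13577 and 9964 in wt and 9667 and 13613 in Hox-/-. The order of the replicates is opposite in the genotypes, and the shift was 0.02. The strongest region of the gene was not its start but an internal one 20.2 kb downstream, chr3:133524407-133525486, which ranked 915 and 2024 in wt and 1315 and 1289 in Hox-/-, a shift of 0.06. The 4 better ranked regions lay 10.8 to 31.5 kb into the gene, on either side of that region. Among them chr3:133518231-133519354 ranked 30774 and 33040 in wt and 21005 and 24403 in Hox-/- (shift 0.49), and chr3:133534071-133534529 ranked 5943 and 8754 in wt and 5866 and 4514 in Hox-/- (shift 0.49). At the second of these, wt replicate 1 and Hox-/- replicate 1 were almost level.

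Tet3, the Tet enzyme of the oocyte and zygote, was the gene of this family with a median shift below 0, -0.19 over 7 shared regions. The region at its listed start, chr6:83440874-83442136, which also lies within 1 kb of an end of the gene model B230319C09Rik, ranked 23703 and 26882 in wt and 22760 and 24346 in Hox-/-, a shift of 0.10 with overlap. A pair of internal regions was worse ranked in Hox-/- with a similar size. The first, chr6:83385644-83386089, ranked 58446 and 64137 in wt and 90977 and 98651 in Hox-/- (shift -0.63), and the second, chr6:83427376-83427838, ranked 58446 and 56180 in wt and 96475 and 85535 in Hox-/- (shift -0.66). At both, the Hox-/- libraries lay far behind and the replicates lay close together. The 1 better ranked region, at the upstream end of the gene model, had a shift of 0.08. The strongest region, chr6:83421639-83422466 inside the gene, ranked 4745 and 3873 in wt and 3707 and 6418 in Hox-/-, which overlap.

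Zfp57, the zinc finger protein that recognises methylated imprint control regions, had its peak at the 2 downstream starts of its 3 listed ones. The region assigned to both, chr17:37002294-37003570, covers the start at 37002525 and ends short of the one at 37003666. It ranked 14234 and 14955 in wt and 12107 and 13783 in Hox-/-. Both Hox-/- ranks were better, but the shift of 0.18 is no larger than the difference between the Hox-/- replicates (0.19), and without Hox-/- replicate 1 it was 0.08 and without Hox-/- replicate 2 it was 0.27. Beyond the far end of the gene, chr17:37011450-37012896 ranked 69621 and 64740 in wt and 41960 and 42991 in Hox-/-, a shift of 0.66 with close replicates. The strongest region of the window, at an end of the neighbour H2-M5 (chr17:36996988-36997821), went the other way, with ranks 4117 and 4393 in wt and 4799 and 5962 in Hox-/- and a shift of -0.33.

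Trim28, the scaffold that Zfp57 recruits, had the second largest start shift. The region over its start, chr7:13023871-13024618, which also lies within 1 kb of an end of the gene model Gm31649, ranked 5095 and 2929 in wt and 2880 and 2156 in Hox-/-. The shift was 0.63, but wt replicate 2 lay within 49 ranks of Hox-/- replicate 1 and the wt replicates differed by 0.80. Leaving out wt replicate 1 gave 0.23, leaving out wt replicate 2 gave 1.03, leaving out Hox-/- replicate 2 gave 0.42 and ranking by fold gave 0.34. The adjoining regions on either side, also within 1 kb of an end of Gm31649, did not separate: chr7:13022985-13023637 ranked 13219 and 14242 in wt and 13287 and 20263 in Hox-/-, and chr7:13024961-13025252 ranked 77977 and 96658 in wt and 65994 and 80048 in Hox-/-. In the upstream flank, chr7:13016261-13016935 was worse ranked in Hox-/-, at 48599 and 46217 in wt and 67996 and 60622 in Hox-/- (shift -0.44).

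The comparison with imprinted loci was made because their start regions had been seen to rank higher in the Hox-/- libraries in earlier work on these lists, so it is a description and no independent support. Of the 35 matched imprinted genes, 26 have a listed start. For the others, such as Peg13, the best-ranked region at either end was taken, whereas the shares of all genes use listed starts only. The 32 imprinted genes with a shared start region had 30 such regions, since Peg3 shares one with Usp29 and Peg10 shares one with Sgce. Of the 30 regions, 10 (33.3%) were better ranked and 0 worse, beside 19.4% and 18.5% of all genes at their best start region, with a median shift of 0.16, against 0.14 for the 10 genes. Regions better ranked by at least 0.5 numbered 6 of these 30 and 2 of the 10, the same share of 20%, beside 4.91% of all genes. The largest was Snrpn, a paternally expressed gene, with ranks 58126 and 47939 in wt and 26273 and 22709 in Hox-/- (shift 1.11). The region shared by Peg3 and Usp29 had ranks 52111 and 36945 in wt and 25174 and 23600 in Hox-/- (0.85). Peg13 ranked 60200 and 57750 in wt and 40302 and 27672 in Hox-/- (0.82), and Kcnq1ot1, the noncoding RNA of the Kcnq1 imprint, ranked 1657 and 1315 in wt and 894 and 812 in Hox-/- (0.79). The Uhrf1 start, at 0.85, lies within the range of these 5 genes.

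**Figure D4:**
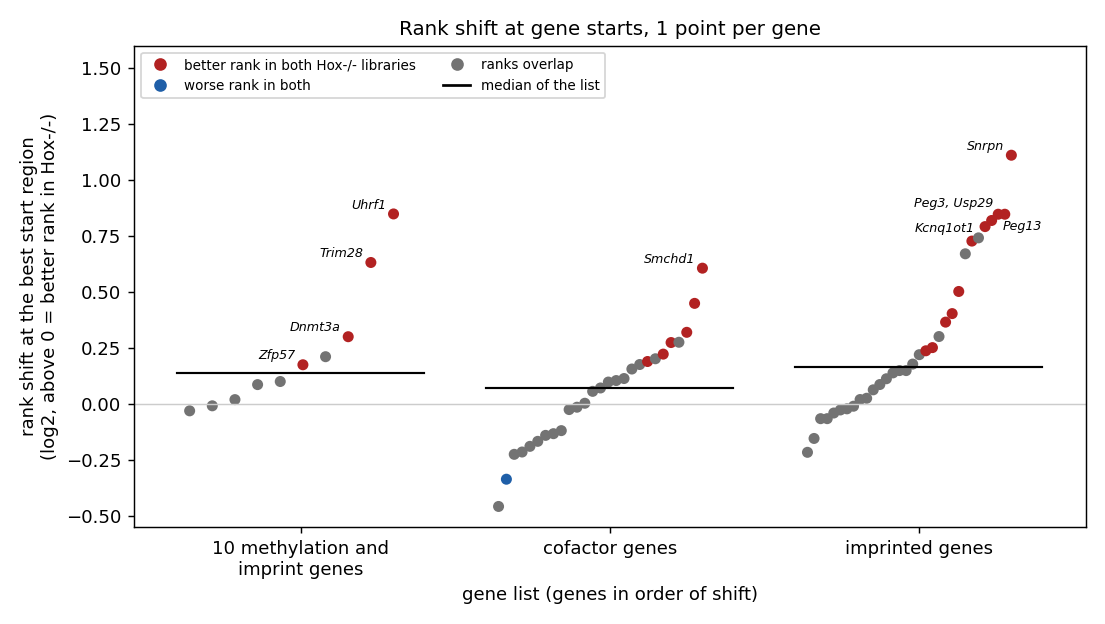
Shift at the best-ranked start region, 1 point per gene in order of shift, for the 10 genes, 27 cofactor genes and 32 imprinted genes; red is better ranked and blue worse ranked in both Hox-/- libraries, grey overlaps, and the line is the median of the list. The medians are 0.14, 0.07 and 0.16, and the largest shifts of each list are those of Uhrf1, Smchd1 and Snrpn. Peg3 and Usp29 are the same region, as are Peg10 and Sgce. Genes without a listed start stand at the best-ranked region of either end.

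Over all regions of their windows, the imprinted genes had 57 of 199 shared regions better ranked (28.6%) and 32 worse (16.1%), with a median shift of 0.05. The 10 genes thus lay on the same side with a median of 0.09. The 8 stem cell markers also had 25 of 85 shared regions better ranked (29.4%) and 16 worse (18.8%), and the 8 genes of differentiated cells 11 and 10 of 46 (23.9% and 21.7%). A share near 30% of better ranked regions was therefore not seen at the methylation genes alone, and whether the lists differ was not tested.

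Genes that work with these 10 were taken as a list of 28 cofactors, among them Usp7 and Hells of maintenance methylation, Setdb1 and the Cbx proteins of the Trim28 complex, methyl-CpG binding proteins and Tdg, which excises oxidised bases. In every library 27 of the 28 had a summit within 1 kb of a start or end, all but Dppa3. At these starts or ends 6 of 27 (22.2%, against 19.4% of all genes at listed starts) were better ranked and 1 (3.70%, against 18.5%) worse, with a median shift of 0.07. The 1 with a shift of at least 0.5 was Smchd1, a chromatin protein of X inactivation and of some imprinted clusters, with ranks 36179 and 28335 in wt and 20437 and 21619 in Hox-/- (0.61). In the whole windows 43 of 216 shared regions (19.9%) were better and 29 (13.4%) worse ranked, with a median shift of 0.02. The share of better ranked cofactor regions was thus near the 20.6% of all regions, and the share of worse ranked ones, 13.4%, was below 20.3% as was that of the 10 genes, 12.5%. Whether the cofactors differ from the 10 genes was not tested.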

How the data were processed

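ATAC-seq peaks of 2 wt and 2 Hox-/- libraries of mouse embryonic stem cells were used, grouped by the genotype label. Per the submitters' processing notes, cutadapt 4.8, Bowtie2 2.5.0, Picard 2.18.2, bedtools 2.30.0, MACS2 2.2.9.1 and deepTools 3.5.4 were used with the build mm10, whose coordinates are those of GRCm38; their settings are not given in the sources used here. The authors deposited a separate peak list for each library. Each line gives the fold over background at the summit (a ratio), the −log10 p and −log10 q of the authors' peak caller, and a display score, which was not used. The lowest deposited −log10 q was 1.30, so weaker peaks are not part of the lists. These values served only to rank or describe peaks within a list.

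Each line was counted as 1 peak. Peaks were joined into regions, and ranks, shifts and overlaps were computed with Python 3.11.15, numpy 2.4.6 and pandas 2.3.3, on chromosomes 1 to 19, X and Y. The script was tested on simulated data with known shifts. Gene bodies came from the RefSeq table of GRCm38.p6, and starts and sequences from the RefSeq promoter table, which matched all 10 genes; where a gene of another list had no entry there, both its ends were used. Of the 36 imprinted genes, 1 (Nespas) had no match. Exons and introns were not annotated, as these tables give only gene bodies and starts. The 10 genes, the gene lists and the tests were chosen with earlier results of these data known. Of the cofactor and imprinted lists, up to 5 genes per direction are named, those with the largest shift of at least 0.5 at a start and no overlap between the genotypes; neighbours are named beside a described region that lies within 1 kb of their end. The labels do not say that the replicate numbers pair the libraries, and the libraries were treated as unpaired. The replicate differences of wt and Hox-/- correlated with r = 0.00 over 122749 regions. Alternatives were each library left out, −log10 q of at least 5, other windows (gene body, 25 kb), other limits for a summit at a start (250 bp, 2.5 kb), merged lines, ranks by fold or among all lines, an overlap of 50%, and a replicate block.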

Additional observations from a re-analysis of the deposited data

How the results depend on the processing

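Over 83 recomputed values of the comparisons, 63 kept their direction and stayed within the limits set for them, 19 moved and 1 reversed. The reversal was the median shift of the cofactor regions, which was 0.02 as reported and between -0.00133 and 0.0420 when 1 library was left out. With 1 library left out, the difference in peak number at the 10 genes ranged from -15 to -1, the shared regions from 104 to 111, the better ranked regions from 45 to 60, the worse ranked ones from 22 to 39, the median shift of the 10 genes from 0.0623 to 0.104 and that of the imprinted genes from 0.0564 to 0.0780. More regions separate when a genotype has only 1 library, so those counts are read against 34.4% to 37.2% better and 33.7% to 35.9% worse ranked among all shared regions. With gene bodies only, 24 of 72 shared regions (33.3%) were better ranked and 7 (9.72%) worse. With windows of 25 kb, 42 of 160 (26.2%) were better ranked and 26 (16.2%) worse, nearer to the 20.6% and 20.3% of all shared regions. Ranking by fold gave median shifts of 0.0559 for the 10 genes, 0.0201 for the imprinted genes and 0.0437 for the cofactors, against 0.0137 over all shared regions. By fold the imprinted genes were thus near all regions, and the cofactors near the 10 genes. Ranking among all lines gave 0.0635 for the imprinted genes, against 0.0162 over all shared regions. With the replicate block, each Hox-/- library is compared with the wt library of the same number. There 44 regions (42.3%) were better ranked and 23 (22.1%) worse, against 28.4% and 27.8% of all shared regions. The labels do not say that libraries of the same number share anything else, so this does not replace the unpaired counts. Of 90 values at single starts, 86 stayed within the replicate spread and 4 moved. Dnmt1 moved to 0.05 and Dnmt3b to 0.42 without Hox-/- replicate 1. Dnmt3a moved to 0.18 by fold, and Tet1 to -0.35 with an overlap of 50%. That spread is made of the same replicate differences that set the change when 1 library is left out. A value could hardly leave it there, and the replicate block repeats the reported value. For these settings the count is no measure of stability. Uhrf1 at 0.53 without wt replicate 2 and Trim28 at 0.23 without wt replicate 1 are among the 86. Read depth is not in the lists, and it limits which weak regions were called in a library.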
